A study of Mus musculus with 9 samples.

Results

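Potassium channel genes, defined here as genes whose symbol starts with Kcn apart from Kcnj8, were followed through 3 stages of preparing mouse mammary epithelial cells. The rule found 91 genes among the 19938 with a single-symbol row on the arrays. It used 94 rows, and the row of highest mean was taken for each gene. Of the 91 genes, 88 were annotated as protein-coding and 3 as long non-coding RNAs named after a neighbouring channel gene (Kcnd3os, Kcnmb4os1 and Kcnmb4os2). The family was chosen by measured values, since the log2 differences of Kcnj13 and Kcnab1 in trypsinized against untrypsinized samples were already known to be among the lowest of all genes. Values and counts of the trypsin step are therefore given as a description from which nothing is read, and the tests concern the mock sort step and the sum of both steps.

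Potassium channels let potassium ions leave the cell along their gradient and so set the resting voltage of the membrane. Voltage-gated channels (Kcna, Kcnb, Kcnc, Kcnd, Kcnq and Kcnh genes) open on depolarisation, inward rectifiers (Kcnj genes) hold the resting voltage, leak channels (Kcnk genes) are open at rest, and Kcnma1, Kcnn and Kcnt channels respond to calcium or sodium inside the cell. Accessory subunits (Kcnab, Kcne, Kcnip and Kcnmb genes) tune the pores. Nerve axons, glia, vascular smooth muscle, skeletal muscle, lymphocytes and secretory epithelia each use different members.

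RNA was measured on 9 Affymetrix whole-transcript arrays, with 3 samples at each of 3 stages. All cells came from wild-type C3H females aged 8 to 9 weeks and were freed from the fat tissue of the mammary gland with collagenase. Untrypsinized samples were collected at that point, trypsinized samples after a further trypsin digestion, and mock sorted samples after trypsin and a mock sort by FACS (fluorescence-activated cell sorting). The labels call the samples of a stage biological replicates but do not tie them to animals, so each p-value speaks only to variation among these 9 preparations, which may be technical. Levels are log2(intensity + 1) of the authors' deposited linear intensities, and differences are on that scale, which understates the change of dim genes. Array medians ranged from 345 to 408 and replicates of a stage correlated at 0.987 to 0.990 over all rows. A gene was called when limma gave a Benjamini-Hochberg adjusted p of at most 0.05 over all 19938 genes and the fold was at least 1.5, which is 0.58 on the log2 scale.

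Markers of the labelled epithelium were checked first. All 13 measured luminal markers and all 11 basal markers exceeded the 90th percentile of 1027 olfactory receptor genes, which are silent in most tissues and served as a floor, in at least 1 stage. The same held for 9 Schwann cell, 19 endothelial, 15 skeletal muscle and 12 lymphocyte markers and for 12 of 13 mural cell markers, of which Higd1b was the exception. Markers of other cell types thus stood beside those of epithelium. In such bulk samples fewer cells of a type and less RNA per cell cannot be told apart.

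The olfactory receptor floor lay at 7.73 in untrypsinized, 7.87 in trypsinized and 7.94 in mock sorted samples. Of the 91 potassium channel genes, 53 had a mean above it at all 3 stages and 62 in at least 1 stage. The other 29, among them the neuronal channels Kcnc1, Kcnd2, Kcnj3, Kcnj6 and Kcnj9, were not above it at any stage and are given no fold change. At the mock sort step 0 channels moved beyond the call limits, beside 1.19% of all genes.

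In trypsinized against untrypsinized samples 4 of the 91 channels passed both limits, and 1.46% of all genes did. Kcnab1, Kcnj13 and Kcnt2 were the 3 lower ones, beside 0.933% of all genes lower, and Kcnmb3 was the higher one, beside 0.532% higher. Because the members were chosen with this contrast, nothing is read from these counts. In mock sorted against trypsinized samples limma called 0 of the 91 channels, and 1.19% of all genes. At an unadjusted p of 0.05 with no minimum fold, 12 channels passed (9 lower and 3 higher), against 17.2% of all genes. Kcnab1, Kcnj2 and Kcnq5 passed the adjusted p without the fold limit, all 3 lower, against 4.2% of all genes lower. In mock sorted against untrypsinized samples 6 channels were called, which is 6.59% of the 91 against 4.47% of all genes. The 5 lower ones, beside 3.4% of all genes lower, were Kcnab1, Kcnj13, Kcnj2, Kcnk6 and Kcnt2, and the 1 higher one, beside 1.08%, was Kcnmb3. Kcnab1 and Kcnj13 were chosen on the same untrypsinized arrays, so their sum of both steps is a description. Without these 2 genes, 4 of the other 89 channels were called, which is 4.49% and near the 4.47% of all genes. The 3 comparisons share arrays, so they are not independent of each other. Setting all arrays to a common median moved the median of all genes in mock sorted against untrypsinized samples to -0.09, from 0.05 as deposited. With that scaling 11 channels were called, the same 6 together with Kcna1, Kcna6, Kcne4, Kcnmb1 and Kcnq5, all 5 lower. With the same scaling 5.16% of all genes were called lower and 0.461% higher.

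**Figure D1:**
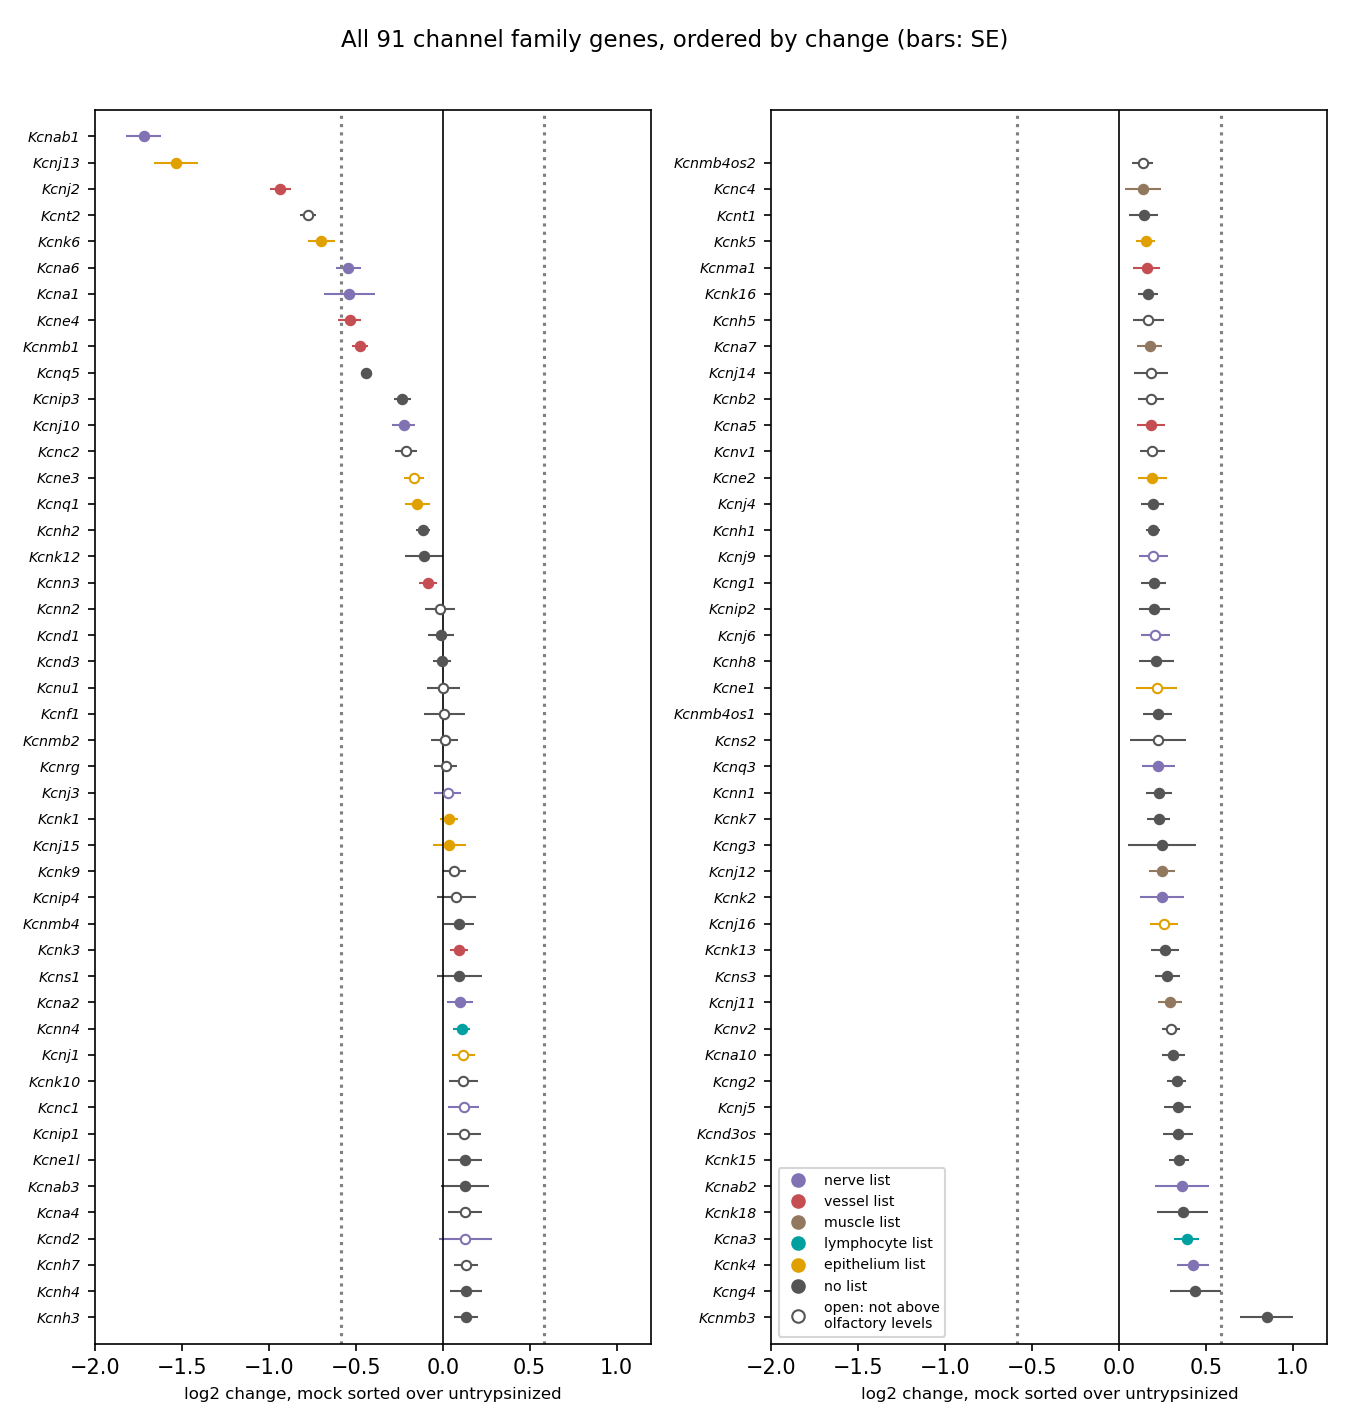
Log2 difference with SE of each of the 91 potassium channel genes in mock sorted against untrypsinized samples, ordered from the lowest to the highest and coloured by tissue list, with open points for genes not above the olfactory receptor floor and dotted lines at the minimum fold. Most genes lie between the lines, Kcnab1, Kcnj13, Kcnj2, Kcnt2 and Kcnk6 lie beyond the lower line and Kcnmb3 beyond the upper one.

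Kcnj13 encodes an inward rectifier known from ion-transporting epithelia such as the choroid plexus and the retinal pigment epithelium. Its log2 level was 8.59, 8.03 and 8.43 in untrypsinized, 7.14, 7.11 and 7.00 in trypsinized and 6.72, 6.85 and 6.87 in mock sorted samples. All 3 untrypsinized samples lay above all others, and the trypsinized and mock sorted means lay under the olfactory receptor floor. The measured log2 values differed by -1.27 (SE 0.13) in trypsinized against untrypsinized samples. No fold is given, because the trypsinized level was not above that floor, and nothing is read from the mock sort step, where neither level was. The gene overlaps Gigyf2 in the annotation, and whether the array's probes separate the strands was not tested. Gigyf2 differed by 0.04 in trypsinized against untrypsinized samples.

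Kcnab1 encodes a beta subunit that binds Kcna channels inside the cell and speeds their inactivation, and it is known from neurons and smooth muscle. Its log2 level was 9.10, 9.39 and 9.27 in untrypsinized, 8.04, 8.20 and 7.98 in trypsinized and 7.61, 7.63 and 7.36 in mock sorted samples. The 3 stages did not overlap, and the level was lower at each successive stage. The mock sorted mean of 7.53 lay under the olfactory receptor floor of 7.94, so the differences that use it are set against a level near background. Trypsinized samples were at 0.442 times the untrypsinized level, a log2 difference of -1.18 (SE 0.10), which ranked 10 from the lowest. Mock sorted samples were lower than trypsinized samples by a further log2 difference of -0.54 (SE 0.10, limma adjusted p = 0.018). This passed the adjusted p but fell short of the minimum fold. The difference was negative in all 3 same-numbered pairs, at -0.43, -0.57 and -0.62. It crossed the minimum fold when trypsinized replicate 3 or mock sorted replicate 2 was left out (-0.59 in either case, adjusted p = 0.041 and 0.0407). Leaving out trypsinized replicate 1 or 2 or mock sorted replicate 3 took the limma adjusted p to 0.0571, 0.0717 and 0.0567. The sum of both steps was -1.72 for Kcnab1 and -1.54 for Kcnj13, given as values only, with the mock sorted means of both under the floor.

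**Figure D2:**
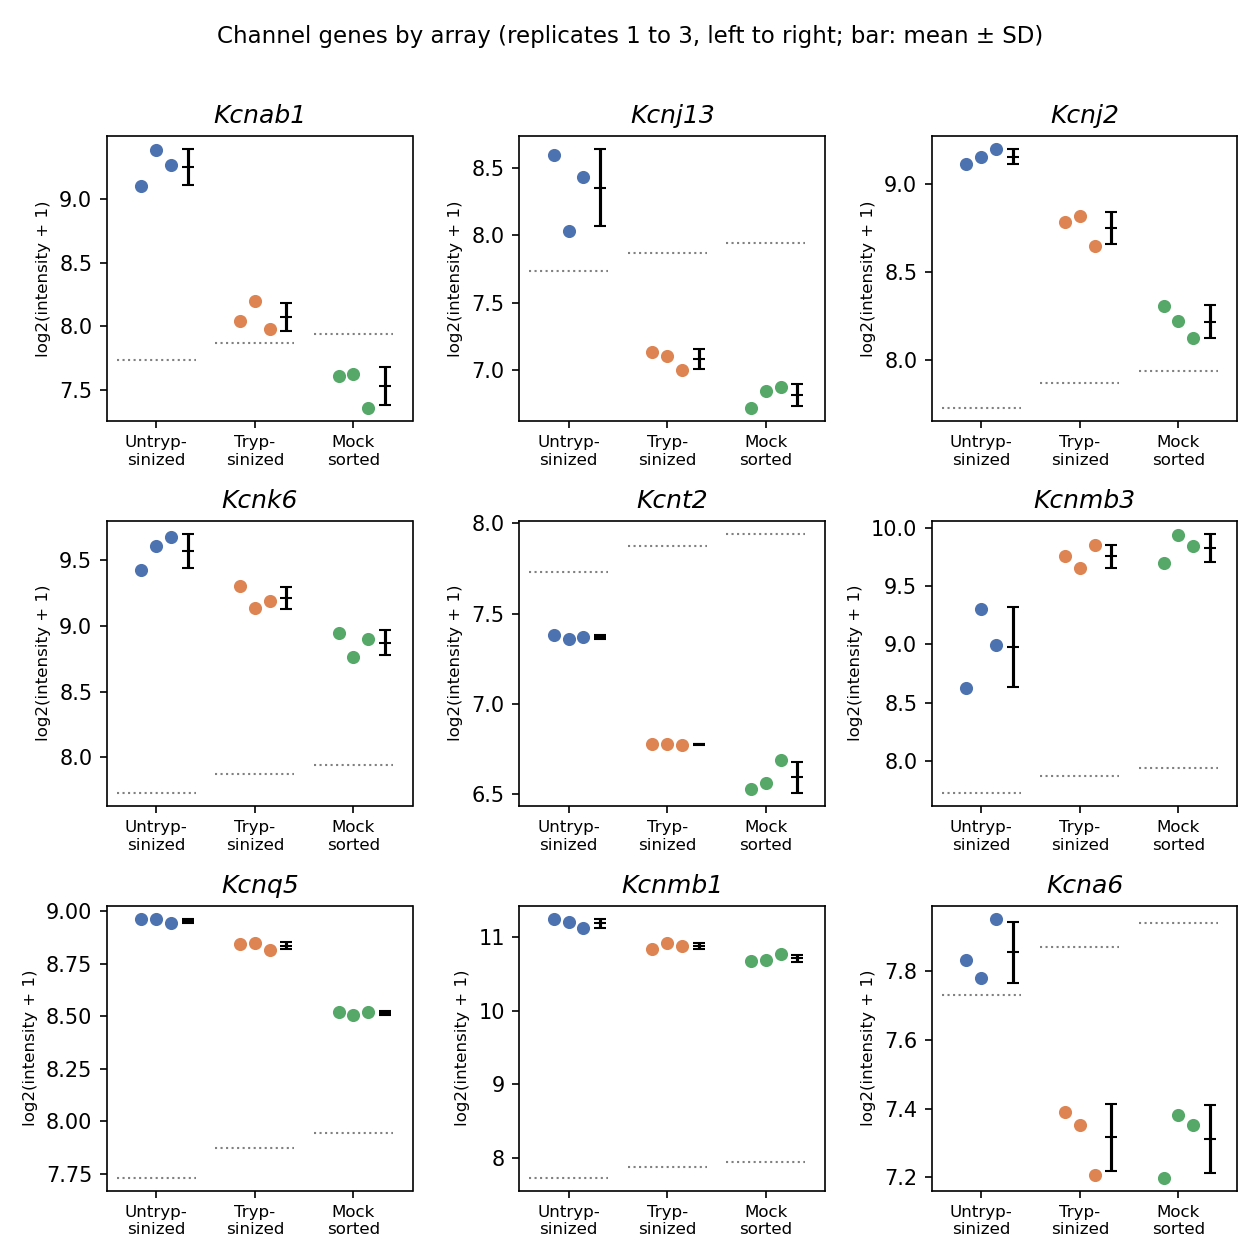
Log2(intensity + 1) of 9 potassium channel genes in every array, with the mean and SD of the 3 samples of each stage and a dotted line at the olfactory receptor floor of that stage; the vertical axes differ between panels. Kcnj13 and Kcnab1, which helped choose the family, have mock sorted means under the floor. Kcnj2, Kcnk6 and Kcnmb1 are lower at each stage, and Kcnmb3 is higher in trypsinized and mock sorted samples.

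The stretches just upstream of the annotated starts of the called channels that have an entry are shown because these genes passed both call limits and their promoters can be compared. Each is 150 bases of RefSeq sequence on build GRCm38.p6, read 5′ to 3′ on the gene's strand and ending at the base before the start. Capitals mark matches on either strand to 3 motifs chosen after the values were seen. One is TATAAA, the core of the element found upstream of some starts. Another is CANNTG, the E-box read by helix-loop-helix factors. The last is ACAAAG, a core of SOX factor sites. Kcnj13 lies at chr1:87394730-87394879 on the minus strand, and the 3 starts of Kcnab1 at chr3:64949062-64949211, chr3:65108864-65109013 and chr3:65187953-65188102, all on the plus strand. Kcnj2 lies at chr11:111066014-111066163 and Kcnt2 at chr1:140245568-140245717 on the plus strand, and Kcnmb3 at chr3:32491970-32492119 on the minus strand.
Kcnj13: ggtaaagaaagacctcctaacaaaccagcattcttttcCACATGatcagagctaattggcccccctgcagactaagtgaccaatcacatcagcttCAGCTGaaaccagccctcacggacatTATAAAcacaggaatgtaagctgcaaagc
Kcnab1 start 1: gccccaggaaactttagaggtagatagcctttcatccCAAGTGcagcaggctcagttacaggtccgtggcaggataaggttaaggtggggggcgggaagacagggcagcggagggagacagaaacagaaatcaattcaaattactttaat
Kcnab1 start 2: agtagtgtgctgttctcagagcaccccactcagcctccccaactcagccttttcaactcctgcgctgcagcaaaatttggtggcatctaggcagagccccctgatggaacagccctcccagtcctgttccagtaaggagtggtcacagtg
Kcnab1 start 3: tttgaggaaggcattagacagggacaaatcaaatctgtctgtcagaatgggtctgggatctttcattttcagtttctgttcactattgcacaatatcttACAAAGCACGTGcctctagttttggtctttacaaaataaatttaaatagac
Kcnj2: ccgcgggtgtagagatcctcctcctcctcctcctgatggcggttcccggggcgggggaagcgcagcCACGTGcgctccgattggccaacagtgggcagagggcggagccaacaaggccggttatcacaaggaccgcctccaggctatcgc
Kcnt2: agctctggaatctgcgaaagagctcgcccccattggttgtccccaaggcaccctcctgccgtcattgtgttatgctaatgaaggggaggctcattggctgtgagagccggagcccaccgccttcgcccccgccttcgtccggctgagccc
Kcnmb3: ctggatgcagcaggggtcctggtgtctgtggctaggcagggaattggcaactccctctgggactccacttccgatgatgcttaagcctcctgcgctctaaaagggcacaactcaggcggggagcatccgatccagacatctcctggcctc

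The Kcnj13 window held a TATAAA match beginning at position -29, counted back from the start, and E-boxes at -112 and -55. TATAAA was found in 7.57% of all 32851 such windows and in 2 of the 94 windows of 69 channel genes with an entry. The first Kcnab1 start had an E-box at -113, the second had no match, and the third had ACAAAG at -51 next to an E-box at -45. Kcnj2 had an E-box at -84, while the Kcnt2 and Kcnmb3 windows held no match. E-boxes occurred in 47.66% of all windows and in 40 of the 94 channel windows, and ACAAAG in 9.88% and 7 of 94. The Kcnj2 window held 13 CG dinucleotides and the Kcnt2 window 9, Kcnmb3 held 4 and Kcnj13 held 1, and the median window held 4. These matches describe the letters and say nothing of binding.

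Among the pore-forming voltage-gated channels, Kcna1 and Kcna6, which sit along myelinated axons, were lower after both steps without passing the fold limit. Kcna6 measured 7.20, 7.38 and 7.35 in mock sorted samples, against 7.83, 7.78 and 7.95 in untrypsinized samples. The groups did not overlap, and the log2 difference was -0.54 (SE 0.07, limma adjusted p = 0.000735), with the mock sorted mean under the olfactory receptor floor. Kcna1 measured 8.02, 8.59 and 8.27 in mock sorted samples, against 8.70, 8.71 and 9.09 in untrypsinized samples. Its difference was -0.54 (SE 0.15, adjusted p = 0.0213), and the mock sorted samples were spread widely. Neither difference at the mock sort step passed in the limma fit that leaves the pairing out (Kcna6 -0.00, adjusted p = 0.986, and Kcna1 -0.16, adjusted p = 0.649).

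Kcnq5, a subunit of the slowly opening current that restrains firing in neurons and also acts in vascular smooth muscle, had closely matching replicates. The log2 level was 8.96, 8.96 and 8.94 in untrypsinized, 8.85, 8.85 and 8.82 in trypsinized and 8.52, 8.51 and 8.52 in mock sorted samples. The mock sorted samples lay below all others. The mock sort step gave -0.32 (SE 0.03, limma adjusted p = 0.000543), and both steps together gave -0.44 (adjusted p = 1.95e-05). Both passed the adjusted p and neither reached the minimum fold.

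Kcna3, the main voltage-gated channel of T cells, was higher after both steps, by 0.39 (SE 0.07, limma adjusted p = 0.00367). It measured 10.03, 10.11 and 10.11 in mock sorted samples, against 9.57, 9.69 and 9.82 in untrypsinized samples. Without replicate 1 of the trypsinized and mock sorted stages, which stood highest in lymphocyte markers, the difference was 0.42. Of 12 lymphocyte markers 3 were called higher in the same comparison, and their part in the Kcna3 values was not tested. Kcnh1, an ether-a-go-go channel, measured 11.36, 11.46 and 11.39 in mock sorted samples, against 11.16, 11.22 and 11.24 in untrypsinized samples. Its difference was 0.20 (adjusted p = 0.00709), or 0.05 with a common array median, and every mock sorted sample lay above every untrypsinized one. Kcng4, a silent subunit that modifies other channels, measured 7.61, 7.87 and 7.61 in untrypsinized, 8.09, 7.71 and 7.63 in trypsinized and 7.90, 8.24 and 8.28 in mock sorted samples. Its mean was above the olfactory receptor floor in mock sorted samples alone, so nothing is read from its difference of 0.44 after both steps, which was under the minimum fold.

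Among the other beta and accessory subunits, Kcnab2 was higher in replicate 1 of both digested stages. It measured 8.64, 8.77 and 8.70 in untrypsinized, 9.48, 8.97 and 9.03 in trypsinized and 9.35, 8.87 and 8.99 in mock sorted samples. The same 2 samples had the highest summed level of the lymphocyte markers, 14.19 for trypsinized replicate 1 and 13.99 for mock sorted replicate 1. The lymphocyte sum ranged over 12.08 to 12.18 in untrypsinized, 12.89 to 14.19 in trypsinized and 12.69 to 13.99 in mock sorted samples, and its part in the Kcnab2 values was not tested. Without both arrays the Kcnab2 difference in mock sorted against untrypsinized samples was 0.23, against 0.37 with them. Kcne4, a subunit that damps voltage-gated channels, measured 9.13, 9.25 and 9.12 in untrypsinized, 8.93, 8.82 and 8.83 in trypsinized and 8.73, 8.50 and 8.67 in mock sorted samples. Its difference after both steps was -0.53 (SE 0.07, limma adjusted p = 0.000544), below the fold limit, with no overlap between the groups.

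Kcnj2, the inward rectifier that stabilises the resting voltage of endothelium, vascular smooth muscle and heart, fell by 0.94 on the log2 scale in mock sorted against untrypsinized samples (SE 0.06, limma adjusted p = 1.62e-05). Its log2 level was 9.11, 9.16 and 9.20 in untrypsinized, 8.78, 8.82 and 8.65 in trypsinized and 8.31, 8.23 and 8.13 in mock sorted samples. The 3 stages did not overlap, and the mock sorted level was 0.523 times the untrypsinized one. The trypsin step accounted for a log2 difference of -0.41 and the mock sort step for -0.53 (SE 0.06, adjusted p = 0.00166). The mock sort difference was -0.47, -0.59 and -0.52 in the 3 same-numbered pairs and passed the adjusted p without reaching the minimum fold.

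Of the remaining inward rectifiers, Kcnj10, the main such channel of glia, differed by -0.22 after both steps (limma adjusted p = 0.0278), with its trypsinized and mock sorted means under the floor. Kcnj11, the pore of ATP-sensitive channels, was higher by 0.29 (adjusted p = 0.0116) and the muscle and heart channel Kcnj12 by 0.25 (adjusted p = 0.0328). Both stayed under the minimum fold.

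Kcnk6, a leak channel of broad expression, fell by 0.70 on the log2 scale in mock sorted against untrypsinized samples (SE 0.08, limma adjusted p = 0.00034). Kcnk6 measured 9.42, 9.61 and 9.68 in untrypsinized, 9.30, 9.14 and 9.19 in trypsinized and 8.95, 8.76 and 8.90 in mock sorted samples. The stages did not overlap. The mock sort step alone gave -0.34 (SE 0.08, limma adjusted p = 0.0529), which missed the threshold in the fit that leaves the pairing out. All 3 same-numbered pairs were negative, at -0.36, -0.37 and -0.29. Kcnk1, a leak channel of kidney and other epithelia, measured 11.82, 11.93 and 11.90 in mock sorted samples, against 11.85, 11.90 and 11.79 in untrypsinized samples, and its difference of 0.04 did not pass (limma adjusted p = 0.625) and was -0.11 once arrays were set to a common median. The acid-sensitive Kcnk5 was higher by 0.15 (adjusted p = 0.0492), and by 0.00 with a common array median. Kcnk4, a mechanically gated leak channel of axons, was higher by 0.43 (adjusted p = 0.00694), also under the fold limit.

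Kcnmb3, an accessory beta subunit of the large-conductance calcium-activated channel, was the 1 called channel that rose. Its log2 level was 8.63, 9.31 and 9.00 in untrypsinized, 9.76, 9.66 and 9.85 in trypsinized and 9.70, 9.94 and 9.85 in mock sorted samples. Every trypsinized and mock sorted sample lay above every untrypsinized one, and the untrypsinized samples had the widest spread of any stage. Mock sorted samples were at 1.8 times the untrypsinized level, a log2 difference of 0.85 (SE 0.15, limma adjusted p = 0.00341). The trypsin step gave 0.78 and the mock sort step 0.07 (adjusted p = 0.86). The gene overlaps Pik3ca, whose difference in mock sorted against untrypsinized samples was -0.20.

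Kcnmb1, the beta subunit that raises the calcium sensitivity of this channel in smooth muscle, was lower at each stage. The level was 11.25, 11.20 and 11.13 in untrypsinized, 10.83, 10.92 and 10.88 in trypsinized and 10.68, 10.70 and 10.77 in mock sorted samples, without overlap between stages. The difference after both steps was -0.48 (SE 0.05, limma adjusted p = 0.000131), under the minimum fold. The pore gene Kcnma1 had 2 rows that disagreed in sign. The brighter one gave 0.16 in mock sorted against untrypsinized samples and the other -0.11. Kcnn4, the calcium-activated channel of lymphocytes and secretory epithelia, measured 11.15, 10.99 and 10.99 in mock sorted samples, against 11.23, 11.20 and 11.20 in trypsinized samples. Its mock sort difference of -0.17 did not pass in the fit that leaves the pairing out (limma adjusted p = 0.107). The 3 same-numbered pairs differed by -0.08, -0.21 and -0.21. Kcnt2, a sodium-activated channel, had levels of 7.38, 7.36 and 7.37 in untrypsinized, 6.78, 6.78 and 6.77 in trypsinized and 6.53, 6.56 and 6.69 in mock sorted samples. Its stages did not overlap and it was called lower after both steps (adjusted p = 8.28e-06), but every mean lay under the olfactory receptor floor, so no fold is given.

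The falling channels that were on a tissue list were then set beside the tissues that use them. Kcnq5 and Kcnt2 were on no tissue list, and Kcnab1 was on the nerve list alone. The nerve and vessel counts therefore leave Kcnq5 out, and the vessel counts leave Kcnab1 out. The nerve list had 14 measured channels. In mock sorted against untrypsinized samples 1 of the 14 was called lower, beside 3.4% of all genes. It was Kcnab1, which helped choose the family on the same untrypsinized arrays, so its call is a description. Without a minimum fold, Kcna1, Kcna6, Kcnab1 and Kcnj10 were lower and Kcnk4 higher at the adjusted p, where 18% of all genes were lower and 21% higher. Kcnab1, Kcna6 and Kcnj10 had mock sorted means under the floor. The list's median difference was 0.13, beside 0.05 over all genes. It includes 5 channels that were not above the floor at any stage (Kcnc1, Kcnd2, Kcnj3, Kcnj6 and Kcnj9), so nothing is read from it. In the same comparison 5 of 9 measured Schwann cell markers were called lower, while Sox10, Erbb3 and Ngfr of the same list were higher at the adjusted p without the minimum fold (by 0.19, 0.26 and 0.24). Their summed log2 level ranged over 14.49 to 14.57 in untrypsinized, 14.15 to 14.17 in trypsinized and 13.91 to 13.93 in mock sorted samples. The part of these cells in the Kcnab1, Kcna1 and Kcna6 values was not tested.

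The vessel list had 7 measured channels. Kcnj2 was called lower after both steps, beside 3.4% of all genes. Kcnmb1 and Kcne4 were lower at the adjusted p alone, where 18% of all genes were lower. Kcna5, Kcnma1, Kcnn3 and Kcnk3 differed by 0.18, 0.16, -0.08 and 0.09, and the list's median was -0.08. Kcna5 had untrypsinized and mock sorted means under the olfactory receptor floor, so nothing is read from its difference. All 19 endothelial markers were called lower in this comparison, and 18 of them at the mock sort step. Their summed level was 15.59 to 15.79 in untrypsinized, 15.23 to 15.25 in trypsinized and 14.14 to 14.38 in mock sorted samples. The mural cell sum was 15.61 to 15.66, 15.42 to 15.43 and 15.16 to 15.17 at the same stages, with 6 of 13 markers called lower after both steps. Acta2, Myh11, Cnn1 and Tagln, the brightest mural markers, are also in the basal list. The mural sum therefore does not separate mural from basal cells. The part of vessel or basal cells in the Kcnj2, Kcnmb1 and Kcne4 values was not tested.

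The muscle list held Kcna7, Kcnj11, Kcnj12 and Kcnc4. In mock sorted against untrypsinized samples limma called 0 of the 4, beside 4.47% of all genes. At an unadjusted p of 0.05, 0 were lower and 3 higher, against 21.3% and 27.9% of all genes, and the list's median was 0.21. Of 15 skeletal muscle markers 5 were called lower in that comparison, while their summed level ranged over 13.05 to 13.36 in untrypsinized, 13.00 to 13.11 in trypsinized and 12.99 to 13.04 in mock sorted samples. The lymphocyte list (Kcna3 and Kcnn4) had 0 of 2 called, beside 4.47% of all genes. At an unadjusted p of 0.05, 1 of the 2 was higher, beside 27.9% of all genes. The epithelium list had 11 of 11 channels measured, with Kcnj13 and Kcnk6 called lower, beside 3.4% of all genes. Kcnj13 helped choose the family on the same untrypsinized arrays, so its call is a description. Without the minimum fold Kcne3 was also lower at the adjusted p, beside 18% of all genes, and was not above the floor at any stage. Kcnj16 and Kcnk5 were higher at the adjusted p alone, beside 21% of all genes, and Kcnj16 was not above the floor at any stage. The list's median was 0.04, and 4 of its 11 channels were not above the floor at any stage. The part of any cell type in the Kcnj13 and Kcnk6 values was not tested. The luminal sum was 16.43 to 16.47, 16.52 to 16.54 and 16.56 to 16.58, and the basal sum 16.04 to 16.07, 15.96 to 16.001 and 15.86 to 15.88, in untrypsinized, trypsinized and mock sorted samples.

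**Figure D3:**
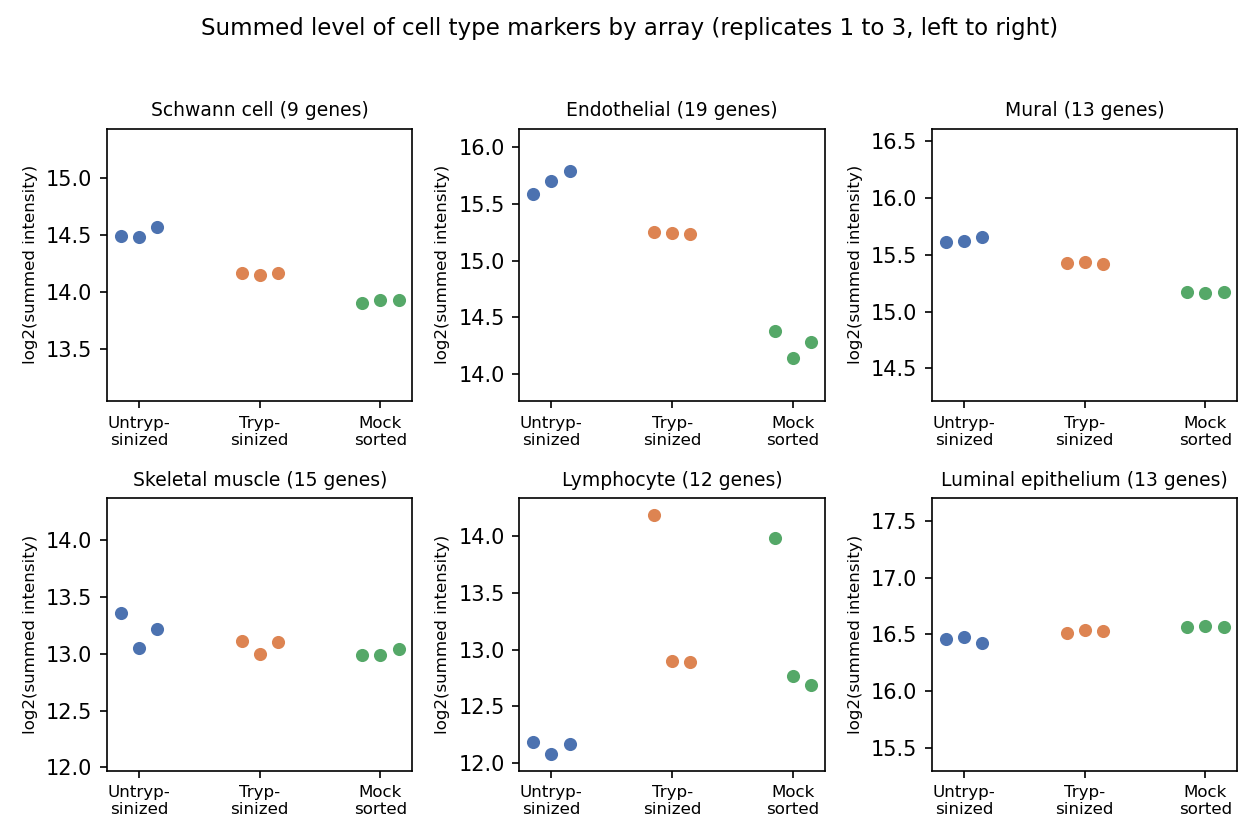
Log2 of the summed intensity of each of 6 marker lists in every array, by stage; all panels span the same log2 range. Endothelial markers drop most at the mock sort step, Schwann cell and mural markers are lower at each stage, and lymphocyte markers are highest in replicate 1 of the trypsinized and mock sorted stages.

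Partners of potassium channels (pumps, cotransporters and further accessory subunits) numbered 26 in the list, and 21 were measured. In mock sorted against trypsinized samples 1 of the 21 was called lower and 0 higher, and in mock sorted against untrypsinized samples 3 were called lower and 0 higher. Of all genes, 1.17% were called lower in the first comparison and 3.4% in the second. The median difference in mock sorted against untrypsinized samples was 0.13, beside 0.05 over all genes. Of the 21 partners, 4 (Dpp10, Lrrc38, Lrrc52 and Lrrc55) were not above the olfactory receptor floor at any stage. Without the fold limit limma gave 6 lower and 9 higher there, beside 18% and 21% of all genes, and 10 higher at an unadjusted p of 0.05. Abcc9, the sulphonylurea receptor of smooth muscle and pericytes that joins inward rectifier pores, fell at the mock sort step, at 9.21, 8.98 and 9.12 in mock sorted samples, against 9.96, 9.93 and 10.06 in trypsinized samples. The log2 difference was -0.88 (SE 0.09, limma adjusted p = 0.00108), and Abcc9 is also in the mural list. Atp1b2, a sodium pump subunit of glia, fell by 1.09 on the log2 scale in mock sorted against untrypsinized samples (adjusted p = 1.05e-05). Slc12a7, a potassium-chloride cotransporter, fell by 0.62 (adjusted p = 0.000244). Abcc8, the partner of Kcnj11 in pancreatic beta cells and neurons, was higher by 0.53 (adjusted p = 3.92e-05), under the fold limit.

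**Figure D4:**
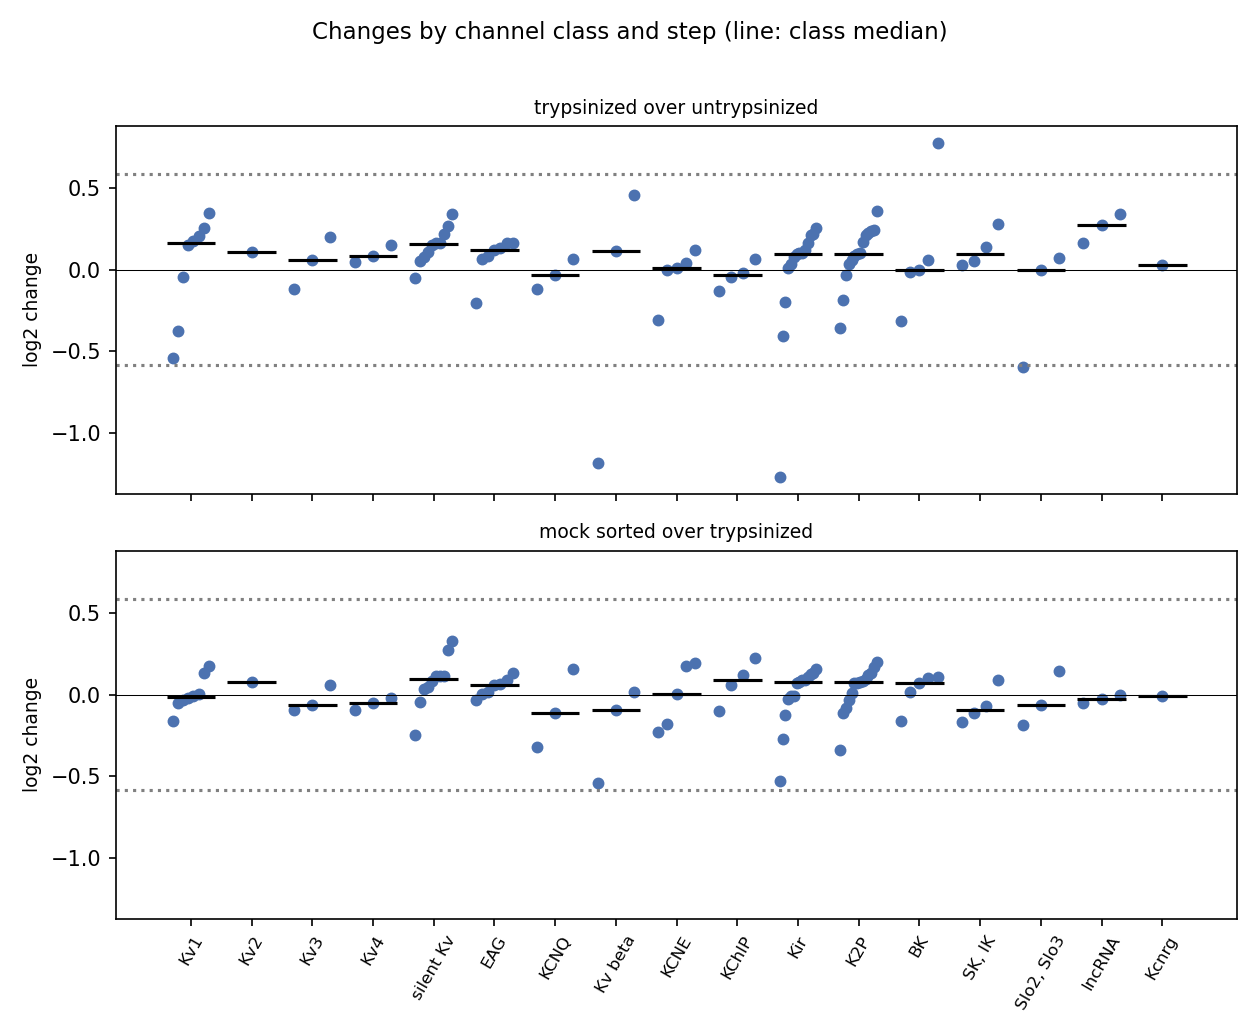
Log2 difference of each of the 91 potassium channel genes by class, for trypsinized over untrypsinized samples (top) and mock sorted over trypsinized samples (bottom), with a line at each class median and dotted lines at the minimum fold. Single members, Kcnj13 among the inward rectifiers (Kir) and Kcnab1 among the beta subunits, stand far below their class medians in the top panel, and no member passes the dotted lines in the bottom panel.

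By class, the 14 inward rectifiers had a median difference of 0.19 in mock sorted against untrypsinized samples and ranged from -1.54 (Kcnj13) to 0.34 (Kcnj5, a subunit of G protein-gated channels). The 14 leak channels had a median of 0.16 and ranged from -0.70 (Kcnk6) to 0.43 (Kcnk4). The 8 Kcna genes had a median of 0.15, with Kcna1 and Kcna6 lower and Kcna3 and Kcna10 higher at the adjusted p, the last at an adjusted p of 0.103 with a common array median. The 10 silent subunits (Kcnf1, Kcng, Kcns and Kcnv genes) included 4 (Kcng2, Kcng4, Kcns3 and Kcnv2) that were higher at the adjusted p, beside 21% of all genes. Of these, Kcnv2 was not above the floor at any stage and Kcng4 in 1 stage only. The 7 ether-a-go-go genes ranged from -0.11 to 0.21, and the 3 Kcnq genes from -0.44 (Kcnq5) to 0.23 (Kcnq3). Of the 4 Kcnip genes, which encode calcium-binding partners of Kcnd channels, Kcnip3 was lower.

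Kcnip3 measured 9.92, 9.97 and 10.02 in mock sorted samples, against 10.23, 10.15 and 10.23 in untrypsinized samples, without overlap. Its difference was -0.23 (SE 0.05, limma adjusted p = 0.00568), far under the minimum fold. Kcnj5 measured 8.02, 8.15 and 8.06 in mock sorted samples, against 7.67, 7.64 and 7.90 in untrypsinized samples, a difference of 0.34 (adjusted p = 0.0108). Its means lay close to the olfactory receptor floor, at 7.74 against 7.73 in untrypsinized and 8.08 against 7.94 in mock sorted samples. Kcnk15, a leak channel gene, measured 9.34, 9.49 and 9.40 in mock sorted samples, against 8.99, 9.05 and 9.17 in untrypsinized samples. The difference was 0.34 (adjusted p = 0.00236), and every mock sorted sample of both Kcnj5 and Kcnk15 lay above every untrypsinized one. The pores of the Kcnd family, which carry the fast transient current of neurons and heart, include Kcnd1 and Kcnd3, which both differed by -0.01. The mock sorted mean of Kcnd3 lay under the floor. Kcnh2, a channel of cardiac repolarisation, measured 8.95, 8.95 and 9.02 in mock sorted samples, against 9.07, 9.09 and 9.11 in untrypsinized samples, and its difference of -0.11 missed the threshold (adjusted p = 0.0573). Kcnq1, which recycles potassium in secretory epithelia, measured 9.11, 9.28 and 9.19 in mock sorted samples, against 9.19, 9.42 and 9.42 in untrypsinized samples and differed by -0.15 (adjusted p = 0.139).

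Over the whole family the members' median difference was 0.08 in trypsinized against untrypsinized samples, beside 0.04 over all genes. It was 0.01 in mock sorted against trypsinized samples, beside 0.00, and 0.13 in mock sorted against untrypsinized samples, beside 0.05. Without a minimum fold 14 members were lower and 21 higher in mock sorted against untrypsinized samples at the adjusted p, against 18% and 21% of all genes. The olfactory receptor genes had a median of 0.16 there, with 192 of 1027 higher and 6 lower. The small rises of channels such as Kcnj5, Kcnj11, Kcnj12, Kcnk15 and Kcnh1 are to be read beside that. The split of members moved with the scaling, to 19 lower and 10 higher after quantile normalisation and to 17 lower and 6 higher with a common array median. The same settings gave 22.7% of all genes lower and 12.9% higher after quantile normalisation, and 34.1% lower and 6.18% higher with a common median. In trypsinized against untrypsinized samples the split was 10 lower and 12 higher, against 11.5% and 13.9% of all genes. It became 14 lower and 6 higher after quantile normalisation, and 15 lower and 1 higher with a common median. Of all genes, 16.9% were lower and 8.03% higher after quantile normalisation there, and 28.4% lower and 3.74% higher with a common median.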

How the data were processed

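RNA from 9 samples was hybridised to Affymetrix whole-transcript arrays after total RNA extraction and biotin labelling, per the labels' protocols. The authors deposited one linear intensity per row and array. How background, probe summary and scaling were handled is not given in the sources used. The tool limma is named in the submitters' processing notes. Of 35512 rows, 21789 carried one gene symbol in the platform annotation, 1621 several and 12102 none; 21698 were updated by gene number to RefSeq (GRCm38.p6) symbols. The row of highest mean stood for each gene. Levels were log2(intensity + 1), with a pseudocount of 1. Group means of all 9 arrays were fitted with lmFit and eBayes (limma 3.58.1, R 4.3.3), and p-values were adjusted over 19938 genes. A gene was called at an adjusted p of 0.05 with a 1.5-fold minimum. No depth exists for arrays, and 3 arrays per stage limit the precision. The members and all lists were chosen with earlier results of these data known. The named genes were Kcnj13, Kcnab1, every called channel and the list members needed to account for each list, and others were named for the class summaries after their values were seen.

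On simulated data with 100 changed genes per size, the fit recovered 43% of 1.5-fold and 98% of 2-fold changes in trypsinized against untrypsinized samples. It recovered 46% and 94% in mock sorted against trypsinized samples, and 46% and 90% in mock sorted against untrypsinized samples. Same-numbered mock sorted and trypsinized samples deviated together from their group means (correlations 0.53, 0.29 and 0.29), so these numbers were taken as pairs, on the data alone. The other 2 comparisons did not meet that rule (0.11, 0.04 and -0.04 for trypsinized and untrypsinized, 0.32, 0.18 and 0.06 for mock sorted and untrypsinized samples). Alternatives covered the call rule, scaling, pseudocount, dim genes, rows, variance model, array weights, the replicate block and each array left out. Promoter windows came from the RefSeq table of GRCm38.p6.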

Additional observations from a re-analysis of the deposited data

How the results depend on the processing

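Counts below are of channels called. Where no share of all genes is given for a setting, nothing is read from its count. Dropping the minimum fold gave 22 in trypsinized against untrypsinized samples (4 with it), beside 25.4% of all genes. It gave 3 in mock sorted against trypsinized samples (0 with it), beside 4.67% of all genes. In mock sorted against untrypsinized samples it gave 35 (6 with it), beside 39% of all genes. Keeping only genes above the median level left 19 channels to test and called 1 (Kcnmb3) at the trypsin step and 2 (Kcnk6 and Kcnmb3) over both steps. With array weights 1 channel was called at the mock sort step (Kcnab1). Leaving out each array in turn gave 4 to 4, 0 to 1 and 6 to 7 in the same 3 comparisons; Kcnab1 joined at the mock sort step without trypsinized replicate 3 or mock sorted replicate 2. Kcna1 joined over both steps without untrypsinized replicate 1 (-0.60), untrypsinized replicate 2 (-0.60) or mock sorted replicate 2 (-0.68). Leaving out replicate 1 of both digested stages, chosen after seeing the data for its lymphocyte RNA, gave 1 call at the mock sort step (Kcng4, 0.59, limma adjusted p = 0.0301, above the floor in mock sorted samples alone).

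A common array median gave 11 calls over both steps. It moved the members' median difference to -0.05 at the trypsin step and -0.01 over both steps, and quantile normalisation moved it to -0.06 and -0.03. An alternative chosen after seeing the data also dropped the minimum fold. With it, the common median gave 23 channels over both steps (35 as deposited), beside 34.1% of all genes lower and 6.18% higher. Quantile normalisation without the minimum fold gave 5 at the mock sort step (3 as deposited). No share of all genes is given for that setting, so nothing is read from the 5. A pseudocount of 16 took Kcnt2 under the minimum fold at the trypsin step. The replicate block gave 4, 0 and 6 calls in the 3 comparisons. With equal numbers of arrays per stage, the block leaves each log2 difference as it was. No channel reached the minimum fold at the mock sort step, so the 0 calls there could not change with the block. They are no check on the pairing, and the mock sort p-values given above come from the fit without the block. With the block in 6 arrays alone, Kcnmb3 lost its call at the trypsin step. No called channel changed sign under any alternative run. The cause of these shifts was not tested. Some of the alternatives leave fewer genes or samples. Signals near the olfactory receptor floor limit Kcnj13, Kcnab1, Kcna5, Kcna6, Kcnd3, Kcng4, Kcnj5, Kcnj10 and Kcnt2.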
